A study of Mus musculus with 15 samples.

Results

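The brains of mouse embryos heterozygous for the K228E missense mutation of Tbr1 (Tbr1+/K228E) were compared with those of wild-type (WT) embryos at E16.5, the stage of late cortical neurogenesis, gene by gene, in bulk RNA-seq. The comparison was taken by genotype label: 10 of the 15 embryos in the series, 5 Tbr1+/K228E and 5 WT, were used, and the other 5 carried the mutation on both copies of the gene (Tbr1K228E/K228E). Genes were kept where their mean over the 15 embryos was at least 5 normalized read counts, which left 16507 of 19475 genes, and 2968 fell below that minimum. At the edge of the filter, Gm21969 was just inside with a mean of 5.002 over the 15 embryos (4.39 ± 2.83 in WT and 4.84 ± 0.966 in Tbr1+/K228E embryos), and Gm15779 was just outside with 4.995 (4.80 ± 3.82 and 3.83 ± 2.47).

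All embryos were C57BL/6J mice, and by the labels each genotype had 3 females, replicates 1 to 3, and 2 males, replicates 4 and 5, each replicate a separate sample. The mutation was knocked in to exon 1 of Tbr1, in an allele that carried loxP sites and a neomycin cassette, and the cassette was taken out by crossing to mice with Cre under the protamine promoter, which acts in the male germ line. The mutant protein was therefore made from the gene's own locus in every cell that uses Tbr1, in Tbr1+/K228E embryos beside a normal copy. No treatment was given. The labels give the tissue as brain, the series as whole brain, the study's methods as brain and its account of the results as forebrain, and all cell types of that tissue were measured together, so that in each value below fewer cells of a type and less RNA per cell cannot be told apart.

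TBR1 is a T-box transcription factor that newborn glutamatergic neurons of the cortex switch on as they leave the cell cycle, and it is known for giving layer 6 neurons their corticothalamic identity and for its place in the subplate and in Cajal-Retzius cells. Reln, which encodes the secreted guidance protein reelin, is its best known activated target, and partners such as CASK join it at synaptic genes such as Grin2b. Loss or change of a single TBR1 copy is a known cause of autism and intellectual disability, and the mutated lysine lies in the T-box, the domain that contacts DNA.

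Values were read counts that the authors had scaled between libraries with DESeq2 size factors, called normalized read counts here. Scaled totals lay between 30.5 and 31.8 M reads in the 15 embryos, and the depth before scaling, estimated from the smallest steps between values, was 26.3 to 34.1 M reads in WT and 29.1 to 38.1 M reads in Tbr1+/K228E embryos. Of the 16507 genes, 16176 had a value above 0 in every embryo. Across genes, which are not independent replicates, log2 values correlated between a WT and a Tbr1+/K228E embryo with r from 0.974 to 0.988, and between embryos of the same genotype with r from 0.977 to 0.987. The Y-linked genes Ddx3y and Eif2s3y were at 0 in every female and at 1495 or more and 1800 or more in every male, as the labels give the sexes.

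Several libraries stood apart in genes of tissues that the samples could hold in unequal amounts, and the map of list levels by embryo shows where. The Hox genes, which pattern the hindbrain and spinal cord and are not used in the forebrain, had a summed value over 14 genes of 1141, 391, 13.9, 3274 and 4.80 in WT replicates 1 to 5 and of 3913, 0, 6.59, 6.98 and 6.65 in Tbr1+/K228E replicates 1 to 5. They were above 300 in 4 of the 10 embryos, 3 WT and 1 Tbr1+/K228E, and Hoxb3, the Hox gene with the highest mean over the 10 embryos, was at 0 in 3 embryos. In Tbr1+/K228E replicate 1, Hoxa5 (789.5) and Hoxb5 (759.7) were above Hoxb3 (643). Summed values of the 13 genes of the meninges, the membranes that wrap the brain, were 45327, 31573, 1708, 14345 and 15742 in WT and 24792, 27348, 29180.3, 7843 and 10337 in Tbr1+/K228E embryos. Igf2 was their most abundant gene, and WT replicate 3 was the lowest embryo, with 83.8 for the collagen gene Col3a1 where the other 9 had 1427 or more. The same embryo was lowest in the choroid plexus gene Ttr, which encodes transthyretin, at 314 against 2361 or more elsewhere.

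Tbr1+/K228E replicate 2 was low in genes of the cerebellum and midbrain, with a mean over 11 genes of 4.02 on the log2(value + 1) scale where the other 9 embryos had 7.09 or more. Neither of the first 2 principal components, which held 25.5% and 20.7% of the variance, separated the genotypes. The first placed WT replicate 3 at one end, and the second placed Tbr1+/K228E replicate 2 and WT replicate 4 at opposite ends. Below, the range in brackets after a list's median is that of the median over the fits that each lack 1 of the 10 embryos.

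**Figure D1:**
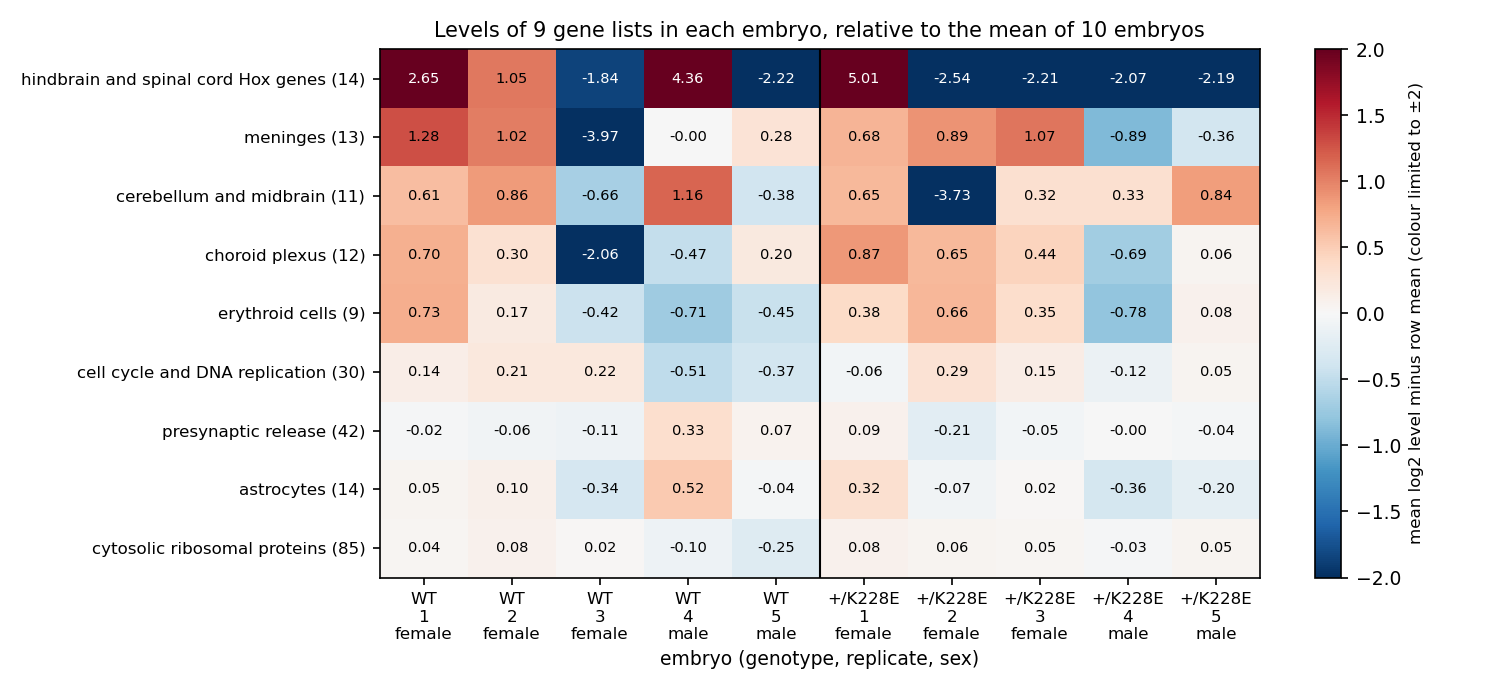
Mean log2(normalized read count + 1) of 9 gene lists in each of the 10 embryos, as the difference from the mean of that list over the 10 embryos (colour). WT replicate 3 is low in the meninges and choroid plexus lists, Tbr1+/K228E replicate 2 is low in the cerebellum and midbrain list, and the Hox list is high in WT replicates 1, 2 and 4 and in Tbr1+/K228E replicate 1.

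No gene was higher or lower in Tbr1+/K228E than in WT brains at an adjusted p below 0.05 (limma on log2(value + 1), two-sided, Benjamini-Hochberg over 16507 genes, 0% of genes called), and the smallest adjusted p was 0.999. At an unadjusted p below 0.05, limma gave 295 genes, which is 1.79% of those tested and fewer than the 825.4 that 5% of as many independent genes would give. Of these, 128 were higher (0.775% of all genes) and 167 lower (1.01%) in Tbr1+/K228E brains. Every Tbr1+/K228E embryo lay above every WT embryo for 17 genes (0.103%) and below every WT embryo for 26 (0.158%). Over all genes, 48.8% were higher in Tbr1+/K228E brains, the median log2 fold change was -0.00, and 95% of fold changes lay between -0.46 and 0.41. The standard error of a log2 fold change had a median of 0.09, and 152 genes (0.921%) differed by more than 1 on the log2 scale.

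**Figure D2:**
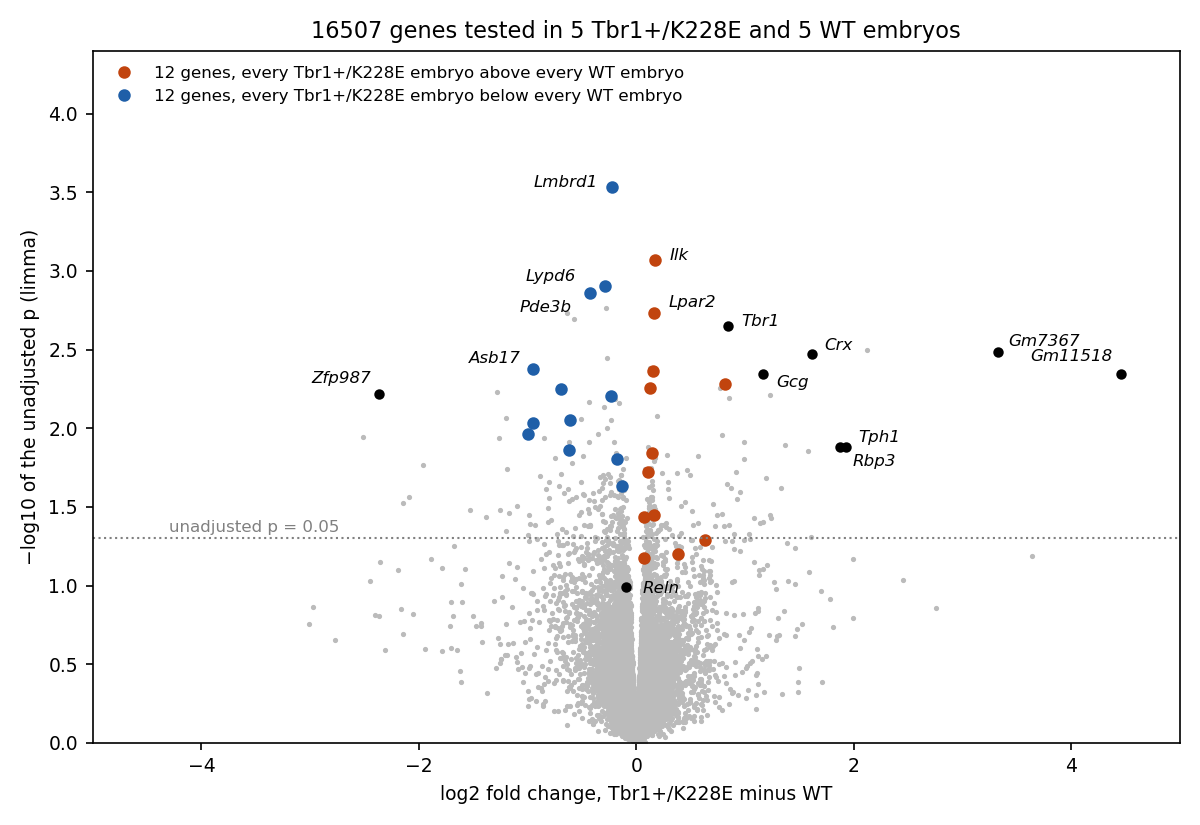
Log2 fold change of Tbr1+/K228E against WT brains (horizontal axis) and -log10 of the unadjusted limma p (vertical axis) for 16507 genes, one point each. No gene passes an adjusted p of 0.05, and Lmbrd1 has the smallest unadjusted p, 0.000292.

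Tbr1 itself was higher in Tbr1+/K228E brains. The gene (ENSMUSG00000035033) lies on chromosome 2, GRCm38 chr2:61802930-61814114, + strand. The mutated codon, number 228, is in exon 1 of 6 of transcript ENSMUST00000048934.14, at chr2:61805389-61805391, and reads AAA, for lysine, in the reference genome. It is shown here because it is the only coding difference that the design puts between the groups. The window chr2:61805359-61805399 from GRCm38, 5′ to 3′ on the + strand with codon 228 in capitals, ends at the end of the exon, 8 bases past the codon.
Tbr1 codon 228 (reference): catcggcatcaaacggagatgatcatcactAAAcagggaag

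The K228E protein change was not read out in this table, whose values count both alleles together. Tbr1 had 3517, 4122, 4871, 2097 and 3079 normalized read counts in WT replicates 1 to 5, and 4738, 8543, 6337, 6743 and 4985 in Tbr1+/K228E replicates 1 to 5. In 4 of 5 Tbr1+/K228E embryos the value was above the highest WT embryo, and the groups overlapped through Tbr1+/K228E replicate 1 and WT replicate 3. The log2 fold change was 0.85 (SE 0.23, 95% confidence interval 0.36 to 1.34), with an unadjusted p of 0.00225 and an adjusted p of 0.999 by limma and p = 0.0159 in the exact two-sided permutation of 5 embryos with 5. It was 0.62 in females and 1.19 in males, a difference of 0.57 (limma interaction, unadjusted p = 0.221).

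Because Tbr1 marks glutamatergic neurons, its level was also set against the 9 other genes of the excitatory neuron list in the same embryo, a measure chosen after the values had been seen. The 9 genes went both ways in WT replicate 4, the embryo lowest in Tbr1. Of the 10 embryos it was lowest in the transcription factor genes Neurod6 (3502), Neurod2 (3111) and Emx1 (260.0) and in the vesicular glutamate transporter gene Slc17a7 (525). It was highest in Slc17a6 (5413), another such transporter gene, high in Camk2b and within the range of the others in Neurod1 and Camk2a. Log2 Tbr1 minus the mean log2 of the 9 genes was 0.61, 0.62, 0.63, 0.13 and 0.18 in WT replicates 1 to 5. In Tbr1+/K228E replicates 1 to 5 it was 0.97, 1.47, 1.22, 1.21 and 1.01. On this scale all 5 Tbr1+/K228E embryos lay above all 5 WT embryos, with a difference of 0.74 between means of 1.18 ± 0.20 and 0.43 ± 0.25 (SD, n = 5 each, two-sided exact permutation p = 0.00794, the smallest that 5 against 5 allows). The 9 genes themselves differed between genotypes by 0.11 on average on the log2 scale.

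None of the genes around Tbr1 passed the adjusted threshold. Of 12 tested genes within 1.5 Mb, 10 were higher and 2 lower in Tbr1+/K228E brains. The nearest were Psmd14, which encodes a proteasome deubiquitinase, with a log2 fold change of 0.05 (SE 0.06), the bicarbonate transporter gene Slc4a10 with 0.04 (SE 0.12) and Tank, an adaptor of innate immune signalling, with 0.05 (SE 0.04). The exception in unadjusted p was Gcg, the proglucagon gene, 672 kb downstream. It had 13.7, 21.2, 24.8, 9.05 and 8.09 in WT and 17.0, 51.5, 43.2, 39.5 and 25.01 in Tbr1+/K228E embryos. Tbr1+/K228E replicates 2 to 5 were above the highest WT embryo and replicate 1 was among the WT values. The log2 fold change of Gcg was 1.17 (SE 0.35, limma unadjusted p = 0.00453, exact permutation p = 0.0317), at values low enough that single embryos weigh heavily.

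Reln had 10821, 10551, 10726, 10831 and 10906 normalized read counts in WT and 9189, 10206, 10478, 10082 and 10432 in Tbr1+/K228E embryos. All 5 Tbr1+/K228E embryos were below all 5 WT embryos, by little in 4 of them and most in replicate 1. The difference, -0.10 (SE 0.06, 95% confidence interval -0.22 to 0.02, limma unadjusted p = 0.102), gave the smallest exact permutation p that the design allows, 0.00794, and did not pass in the fit across genes. In a list of known TBR1 partners and targets, 9 of 22 were higher and 13 lower, with a median of -0.03 (-0.06 to 0.03), which was 0.03 without WT replicate 3 and 0.02 without Tbr1+/K228E replicate 1. In males alone 14 of 22 were higher with a median of 0.15, and in females alone 5 of 22 with -0.05. Tbr1 was the member with an unadjusted limma p below 0.05.

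The genes that the study names for this comparison were picked on these same 10 embryos, so their direction is not independent evidence. With DESeq2 and p-values corrected by fdrtool, it called Crx and Ilk higher and Lmbrd1, Lypd6 and Pde3b lower, at an adjusted p below 0.05. That test is unlike the limma fit used here, in which none of them passed. The study reports that qRT-PCR did not bear these genes out, although the changes went in similar directions. Ilk, integrin-linked kinase, a scaffold that ties integrins to actin (ENSMUSG00000030890, chr7:105736592-105742925, + strand), had 2377, 2400.4, 2300.1, 2420.0 and 2164 in WT and 2504, 2712, 2555, 2574 and 2764 in Tbr1+/K228E embryos. The groups did not overlap, with a log2 fold change of 0.17 (SE 0.04, limma unadjusted p = 0.000853). In a list of 17 genes of the ILK complex and focal adhesions, which includes Ilk, 8 were higher and 9 lower, with a median of -0.01 (-0.06 to 0.01).

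Lmbrd1 and Abcd4 encode the 2 proteins that together carry cobalamin (vitamin B12) out of the lysosome, and both were lower in Tbr1+/K228E brains. Lmbrd1 (ENSMUSG00000073725, chr1:24678630-24766301, + strand) had 1896, 1817, 1795, 1712 and 1936 in WT and 1636, 1552, 1605, 1453 and 1609.5 in Tbr1+/K228E embryos. Abcd4 (ENSMUSG00000021240, chr12:84601464-84617413, - strand) had 459, 443, 487, 438 and 489.7 in WT and 418, 405, 422, 391 and 429 in Tbr1+/K228E embryos. For each of these genes, every Tbr1+/K228E embryo was below every WT embryo, with log2 fold changes of -0.22 (SE 0.05, limma unadjusted p = 0.000292) and -0.17 (SE 0.07, limma unadjusted p = 0.0274). Of the tested genes of cobalamin handling, a list built around Lmbrd1, 12 of 15 were lower, with a median of -0.07 (-0.08 to -0.04). Lmbrd1 and Abcd4 were the 2 with an unadjusted limma p below 0.05, which 1.79% of all genes had, and were below every WT embryo in every Tbr1+/K228E embryo, as 0.158% of all genes were. The study had picked Lmbrd1 on these same embryos, so its place in either count was fixed beforehand and says nothing about the list.

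Lypd6 encodes a membrane-anchored protein that promotes Wnt signalling through LRP6 and binds nicotinic acetylcholine receptors. Its values (ENSMUSG00000050447, chr2:50066429-50193569, + strand) were 542, 613, 644, 584 and 543 in WT and 469.6, 508, 479.7, 484 and 446 in Tbr1+/K228E embryos, with no overlap and a log2 fold change of -0.29 (SE 0.07, limma unadjusted p = 0.00124). Among tested genes of the LYPD6 family and of nicotinic receptors, 13 of 16 were lower, with a median of -0.10 (-0.17 to 0.00) that was 0.00 without Tbr1+/K228E replicate 2. Chrna1, the alpha subunit of the muscle nicotinic receptor, was higher, at 27.9 ± 4.09 against 19.4 ± 3.51 (SD, n = 5 each), a log2 fold change of 0.51 (SE 0.22, limma unadjusted p = 0.0337).

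Pde3b, a phosphodiesterase that breaks down cyclic AMP (ENSMUSG00000030671, chr7:114415281-114539251, + strand), had 739, 938, 789.9, 1056 and 745 in WT and 486, 684, 716, 621 and 666 in Tbr1+/K228E embryos. Again the groups did not overlap, with Tbr1+/K228E replicate 3 only just below WT replicate 1, and the log2 fold change was -0.43 (SE 0.11, limma unadjusted p = 0.00138). The cyclic nucleotide phosphodiesterases as a list had 12 of 17 tested genes lower and a median of -0.02 (-0.05 to 0.02).

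**Figure D3:**
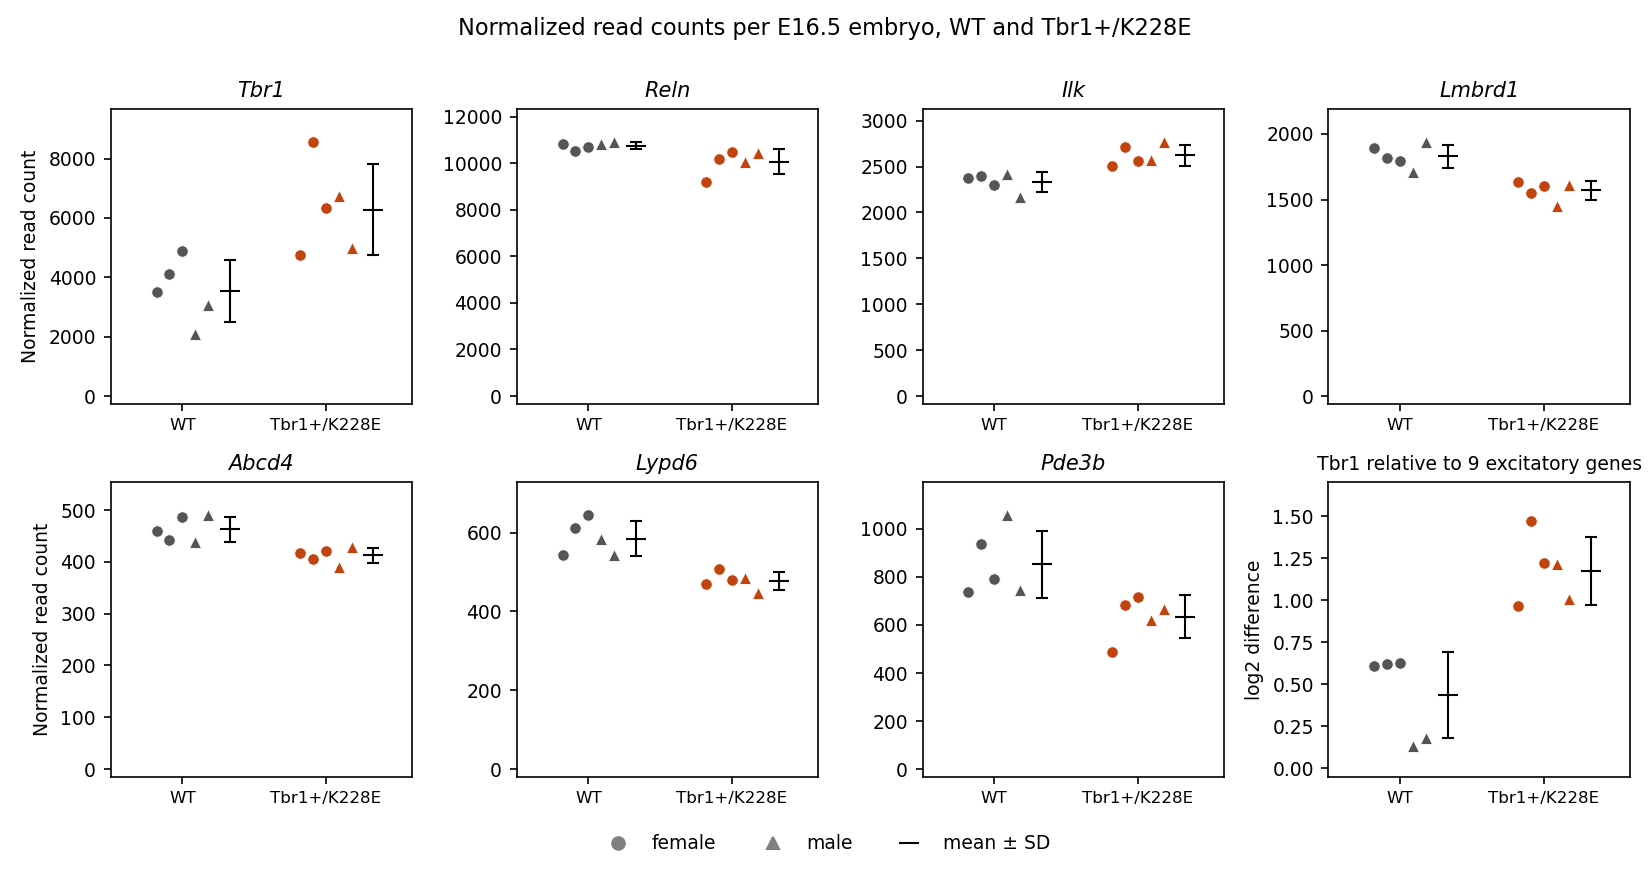
Normalized read count in each embryo (vertical axes, linear) for Tbr1, Reln, Ilk, Lmbrd1, Abcd4, Lypd6 and Pde3b, and in the last panel log2 Tbr1 relative to 9 other excitatory neuron genes, with circles for females, triangles for males and bars for the mean ± SD of 5 embryos. The genotypes overlap for Tbr1 as counted, and do not overlap for the other 6 genes or for Tbr1 relative to the 9 genes.

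Crx, the homeobox factor of photoreceptors and pineal cells, was higher in Tbr1+/K228E brains together with other genes of those cells, at values near the bottom of the measured range. Crx (ENSMUSG00000041578, chr7:15865947-15879968, - strand) had 6.21, 7.38, 5.36, 2.33 and 3.74 in WT and 10.4, 40.5, 43.8, 8.29 and 7.31 in Tbr1+/K228E embryos. Tph1, the tryptophan hydroxylase that opens melatonin synthesis (ENSMUSG00000040046, chr7:46644641-46672537, - strand), had 2.38, 4.91, 14.2, 1.69 and 2.03 and 6.08, 55.1, 40.4, 11.2 and 8.95. Rbp3, which encodes a retinoid-binding protein of photoreceptors and pineal cells (ENSMUSG00000041534, chr14:33954003-33964216, + strand), had 1.78, 0, 1.09, 5.98 and 0 and 2.14, 15.9, 21.1, 6.34 and 2.13. In each of the 3 genes Tbr1+/K228E replicates 2 and 3 were highest, and the remaining Tbr1+/K228E embryos were close to or within the WT range.

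The log2 fold changes were 1.61 (SE 0.47, limma unadjusted p = 0.00339) for Crx, 1.93 (SE 0.69, p = 0.0131) for Tph1 and 1.88 (SE 0.67, p = 0.0132) for Rbp3, where the exact permutation p was 0.0159, 0.0476 and 0.0397. In the list of pineal gland and retina genes, 10 of 14 tested were higher, with a median of 0.27 (0.16 to 0.42), 0.05 in females and 0.47 in males, and 2 of them, Crx and Tph1, had an unadjusted limma p below 0.05, against 1.79% of all genes. Crx was among the genes that the study picked on these same embryos, so its place in that count was fixed beforehand. Rbp3 was not in the pineal gland and retina list and was named for the size of its difference. The list's summed value was 2419.7, 2276, 2114, 2168 and 2104 in WT and 2114, 2035, 2209, 2403 and 2534 in Tbr1+/K228E embryos, with Rorb, which cortical neurons also use, and Otx2, a homeobox factor also used in the choroid plexus, the most abundant. Rorb had the higher mean over the 10 embryos, and Otx2 was above it in 4 of them. Aanat, the rate-limiting enzyme of melatonin synthesis, did not follow Crx across embryos, with 6.41, 24.9, 26.4, 14.8 and 6.49 in WT and 5.92, 27.3, 27.6, 8.71 and 30.4 in Tbr1+/K228E embryos. Asmt, the last enzyme of that pathway, was not analysed here, and the share of pineal tissue in each sample was not tested.

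The promoter windows of 10 genes described here were sought in RefSeq (GRCm38.p6, 250 bases before to 50 after the start), and 9 genes had 1 or more, 12 windows in all. The T-box core GGTGTGA, searched on both strands (reverse TCACACC), was in 0 of the 12 windows, and in 3.96% of 27025 mouse promoters of the same length. The core TAATCC (reverse GGATTA), to which CRX and OTX2 bind, was in the windows of 2 genes, Crx and Rbp3, and in 7.16% of promoters. The windows of Tph1 and Gcg, which were highest in the same embryos as Crx and Rbp3, held neither core. The 250 bases before the start of Crx and Rbp3 are shown because their windows held a match. They run in lower case from 5′ to 3′ along the gene, with the reverse core in capitals. The 2 cores do not overlap each other. The matches start 94 and 21 bases before the start of Crx and 69 bases before that of Rbp3. A match is a description of the letters, and binding was not measured.
Crx upstream bases, chr7:15879956-15880205, - strand: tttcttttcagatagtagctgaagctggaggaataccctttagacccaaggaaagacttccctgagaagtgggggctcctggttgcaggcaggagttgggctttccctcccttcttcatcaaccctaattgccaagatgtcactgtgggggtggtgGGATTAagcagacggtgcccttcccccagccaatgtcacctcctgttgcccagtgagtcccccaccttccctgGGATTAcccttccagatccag
Rbp3 upstream bases, chr14:33953753-33954002, + strand: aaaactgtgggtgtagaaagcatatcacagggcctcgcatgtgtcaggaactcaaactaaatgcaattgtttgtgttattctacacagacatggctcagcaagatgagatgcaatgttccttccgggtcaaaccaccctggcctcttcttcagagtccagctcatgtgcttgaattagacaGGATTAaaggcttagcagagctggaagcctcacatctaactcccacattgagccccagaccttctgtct

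**Figure D4:**
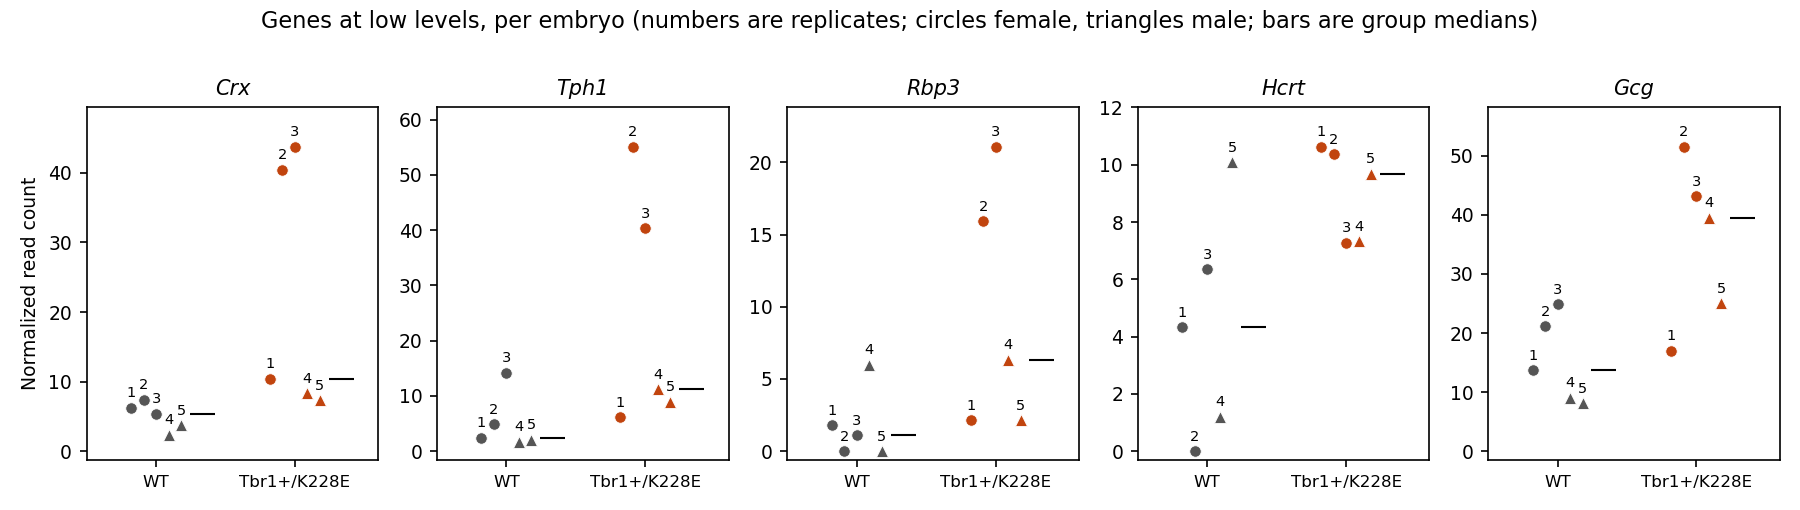
Normalized read count of Crx, Tph1, Rbp3, Hcrt and Gcg in each embryo (vertical axes, linear), marked with replicate numbers, with bars for the group medians. Tbr1+/K228E replicates 2 and 3 are the highest of the 10 embryos in Crx, Tph1, Rbp3 and Gcg, and WT replicates 2 and 4 are the lowest in Hcrt.

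The list of thalamus and hypothalamus genes holds 6 peptide hormone genes, whose means were higher in Tbr1+/K228E brains for Hcrt, Pmch, Avp, Trh and Oxt and lower for Pomc. Trh, the thyrotropin-releasing hormone gene, was at 77.9 ± 20.0 in Tbr1+/K228E against 53.7 ± 15.8 in WT embryos, and Oxt, the oxytocin gene, at 7.75 ± 3.63 against 5.72 ± 3.99 (SD, n = 5 each), with overlap in both. Pomc, the precursor of melanocortins, was at 40.7 ± 13.1 in Tbr1+/K228E against 79.8 ± 106 in WT embryos (SD, n = 5 each), with WT replicate 1 highest at 268. Hcrt, which encodes the wakefulness peptide orexin, had 4.32, 0, 6.35, 1.20 and 10.1 in WT and 10.6, 10.4, 7.28, 7.33 and 9.69 in Tbr1+/K228E embryos. The Tbr1+/K228E values lay close together, and 2 of them were above the highest WT embryo while WT replicate 2 was at 0, and the log2 fold change was 1.34 (SE 0.53, limma unadjusted p = 0.0241, exact permutation p = 0.0397). Pmch, the melanin-concentrating hormone gene, was 1.46 (SE 0.71) and Avp, the vasopressin gene, 1.29 (SE 0.75), each with WT replicate 2 or 4 lowest, and neither had an unadjusted limma p below 0.05. Of the tested genes of thalamus and hypothalamus, 8 of 15 were higher, with a median of 0.18 (0.08 to 0.30). Over all the alternatives run, this median lay between -0.11 and 0.30 and changed sign in 1 of them.

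Beyond the genes above, the 17 genes with every Tbr1+/K228E embryo above every WT embryo differed by small amounts where expression was high. Lpar2, a receptor for lysophosphatidic acid, was at 682 ± 13.6 against 611 ± 24.0 (SD, n = 5 each), a log2 fold change of 0.16 (SE 0.04, limma unadjusted p = 0.00186). Otulin, which removes linear ubiquitin chains, had a log2 fold change of 0.16 and Nedd8, the ubiquitin-like modifier of cullins, of 0.07. Genes of mitochondrial proteins in this group were Fam210a (0.14) and Tmem11 (0.11). Bahd1, a heterochromatin protein gene, had 0.12 and the zinc finger gene Zfp629 0.07. Larger log2 fold changes were at low values, with 0.63 for the meiotic cohesin gene Rad21l (7.95 ± 2.15 against 4.92 ± 1.72), 0.82 for Gm21960 and 0.39 for Klb, the co-receptor of FGF21. Only 9 of the 17 had an unadjusted limma p below 0.05.

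Among the 26 genes with every Tbr1+/K228E embryo below every WT embryo, 20 had an unadjusted limma p below 0.05. Lrrc24, a leucine-rich repeat protein gene, was at 447 ± 44.1 against 522 ± 6.16, a log2 fold change of -0.23 (SE 0.07). Tsc22d4 had -0.18 and Epg5, which tethers autophagosomes to lysosomes, -0.13. At low values were Adra1d, the alpha-1D adrenergic receptor, with -0.95 (5.65 ± 1.74 against 11.8 ± 3.30), the cation channel gene Trpc6 with -0.62 and the rhomboid protease gene Rhbdl2 with -0.61. Asb17 (-0.94), Piwil1, a piRNA-binding protein gene (-0.69), and Smc1b, a cohesin subunit gene (-0.99), were at 5.02 ± 1.88, 16.8 ± 2.11 and 6.65 ± 2.74 against 10.1 ± 1.29, 28.0 ± 5.62 and 13.3 ± 2.63 in WT brains. None of these genes passed the adjusted limma threshold.

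Several of the largest log2 fold changes among genes with an unadjusted p below 0.05 were in pseudogenes and unnamed gene models, whose reads may be split with near-identical copies. Gm11518 had 16.48, 39.8, 0, 0 and 0 in WT and 69.1, 30.7, 45.5, 178 and 198 in Tbr1+/K228E embryos, and was thus listed at 0 in 3 WT embryos. Gm7367 was listed at 0 in all 5 WT embryos and had 0, 27.3, 27.1, 23.3 and 4.30 in Tbr1+/K228E embryos. Gm6311 had a log2 fold change of 2.12, and on the lower side Gm10197 had -2.51, the zinc finger gene Zfp987 -2.36, Gm14760 -2.14, Gm13233 -2.09 and the ribosomal pseudogene Rps24-ps3 -1.96. With an unstranded library kit, reads of overlapping antisense genes cannot be told apart either.

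Markers of the neuron classes in which TBR1 acts are set against 48.8% of genes higher and a median of -0.00 over all genes. Of layer 6 and corticothalamic genes 8 of 10 were higher in Tbr1+/K228E brains with a median log2 fold change of 0.08 (0.01 to 0.16), of layer 5 genes 6 of 10 with 0.05 (0.03 to 0.10), and of upper-layer genes 10 of 11 with 0.08 (0.03 to 0.15). Without WT replicate 4 these medians were 0.01, 0.04 and 0.03, and without WT replicate 3 they were 0.16, 0.10 and 0.15. Subplate genes had 4 of 9 higher and a median of -0.08 (-0.13 to 0.05), which was 0.04 without WT replicate 5 and 0.05 without Tbr1+/K228E replicate 2, and Cajal-Retzius genes, Reln among them, 2 of 10 and -0.11 (-0.19 to 0.01), which was 0.01 without Tbr1+/K228E replicate 2. Foxp2 and Tle4, transcriptional regulators of layer 6, had log2 fold changes of -0.06 (SE 0.12) and 0.12 (SE 0.07). The excitatory neuron list as a whole, Tbr1 included, had 7 of 10 higher and a median of 0.16 (-0.00 to 0.26), which was -0.00 without WT replicate 4. Genes of GABAergic interneurons, which migrate into the cortex from the ventral forebrain, had 11 of 16 higher with a median of 0.21 (0.10 to 0.29). This median was 0.10 without Tbr1+/K228E replicate 2 and 0.12 without WT replicate 4, and was 0.05 in females alone and 0.34 in males alone.

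In cell cycle and cytosolic ribosomal protein genes the 2 WT males had the lowest summed values of the 10 embryos. Of intermediate progenitor genes 6 of 10 were higher with a median of 0.15 (-0.01 to 0.24), which was -0.01 without WT replicate 4, and of radial glia genes 7 of 12 with 0.01 (-0.03 to 0.07). Cell cycle and DNA replication genes had 29 of 30 higher and a median of 0.11 (0.00 to 0.19), but 0.00 without WT replicate 4, whose summed value, 32524, was the lowest of the 10 embryos (51334, 56070.1, 55321, 32524 and 37277 in replicates 1 to 5, and 44967, 60662, 53897, 42657 and 49085 in Tbr1+/K228E embryos). Cytosolic ribosomal protein genes had 83 of 85 higher with a median of 0.05 (0.02 to 0.08). Their summed values were 670131, 680609, 659410.0, 584478 and 585965 in WT and 663341, 671403, 666031, 644464 and 649230.0 in Tbr1+/K228E embryos, so that WT replicates 4 and 5, the males, were low and the other embryos overlapped. By sex the median was -0.01 in females and 0.15 in males. Mitochondrial ribosomal genes had 49 of 78 higher and 0.01 (-0.00 to 0.02), and oxidative phosphorylation genes 55 of 94 and 0.01 (-0.01 to 0.03).

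Of postsynaptic density genes, glutamate receptors included, 17 of 40 were higher with a median of -0.01 (-0.05 to 0.01), of GABA receptor and chloride transporter genes 5 of 17 with -0.06 (-0.09 to 0.02), and of autism risk genes 20 of 52 with -0.02 (-0.03 to 0.00). Of the autism risk genes 16 of 52 were higher in females alone with a median of -0.02, and 29 of 52 in males alone with 0.02. The GABA receptor median was 0.02 without WT replicate 4. Of those genes 11 of 17 were higher in females alone with a median of 0.02, and 0 of 17 in males alone with -0.20. Grin2a, an NMDA receptor subunit gene, had 103, 105, 94.4, 185 and 129 in WT and 103, 64.2, 90.2, 97.5 and 94.0 in Tbr1+/K228E embryos, and its log2 fold change of -0.43 (SE 0.19, limma unadjusted p = 0.0413) had WT replicate 4 as its highest embryo. Presynaptic release genes had 2 of 42 higher with a median of -0.07 (-0.11 to 0.00), which became 0.00 without WT replicate 4, the embryo with the highest summed value, 257973. Of these 24 of 42 were higher in females alone with a median of 0.01, and 3 of 42 in males alone with -0.16. Of clustered protocadherins, which give neurons their surface identity, 43 of 57 were lower with a median of -0.07 (-0.10 to -0.03), and -0.03 without WT replicate 4. The median was -0.01 with the Hox and meninges levels of each embryo as covariates, -0.01 in females and -0.13 in males. An unadjusted limma p below 0.05 was found for 4 of the 57, all lower (7.02%, against 1.01% of all genes lower at that threshold), namely Pcdhb2 (-0.31), Pcdhb14 (-0.31), Pcdhb16 (-0.21) and Pcdhb21 (-0.24). These paralogs share sequence, so reads may be split between them.

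Other gene groups gave counts on either side of the background. Of extracellular matrix genes 25 of 56 were higher with a median of -0.00, whose sign turned to 0.00 with upper quartile scaling. That median (-0.19 to 0.12) was -0.19 without WT replicate 3, and was 0.16 in females and -0.27 in males. Tnc, the tenascin gene, had 8030.2, 8349, 8274, 9769.5 and 8468 in WT and 7887, 6658, 7053, 8133 and 8559.9 in Tbr1+/K228E embryos and a log2 fold change of -0.17 (SE 0.07, limma unadjusted p = 0.0344), with overlap. Adamts3, a procollagen protease that also cleaves reelin, had -0.28 (SE 0.13, limma unadjusted p = 0.0394). Immediate early genes had 11 of 16 higher with a median of 0.06 (0.00 to 0.10), which was 0.00 without WT replicate 5. Heat shock and unfolded protein genes had 10 of 18 higher with 0.01 (-0.02 to 0.04), and hypoxia and glycolysis genes 8 of 20 with -0.01 (-0.05 to -0.00). Dnajb1, a heat shock co-chaperone gene, was at 1278, 1326, 1320.1, 1420.1 and 1326 in WT and 1405, 1467, 1491, 1443 and 1476 in Tbr1+/K228E embryos, a log2 fold change of 0.13 (SE 0.04, limma unadjusted p = 0.00413). Its WT replicate 4 lay among the Tbr1+/K228E values.

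Lists of glia, vessels and neighbouring tissues varied widely between embryos of the same genotype. Astrocyte genes had 2 of 14 higher with a median of -0.12 (-0.17 to -0.02) and oligodendrocyte genes 2 of 10 with -0.07 (-0.13 to 0.02), which were -0.02 and 0.02 without WT replicate 4. Microglia genes had 5 of 12 higher with -0.01 (-0.11 to 0.06), a sign that turned to 0.01 under quantile normalization. Endothelial genes had 9 of 13 higher with 0.04 (-0.09 to 0.12), which was -0.09 without WT replicate 3. In females alone 9 of 12 microglia and 11 of 13 endothelial genes were higher, with medians of 0.12 and 0.16. In males alone the counts were 1 of 12 and 1 of 13, with medians of -0.27 and -0.15. Genes of ependymal and other ciliated cells had 7 of 7 higher with 0.23 (0.15 to 0.37), with 7 of 7 in females alone with 0.48 and 0 of 7 in males alone with -0.11. Erythroid genes had 7 of 9 higher with 0.32 (0.17 to 0.54), which was 0.17 without WT replicate 3 and -0.09 without WT replicate 3 and Tbr1+/K228E replicates 1 and 2. Meninges genes had 12 of 13 higher with a median of 0.57 (-0.33 to 0.91), which was -0.33 without WT replicate 3, and choroid plexus genes 9 of 12 with 0.55 (0.03 to 0.87), which was 0.03 without it. Hox genes had 2 of 14 higher and a median of -1.79 (-3.36 to -0.84). Cerebellum and midbrain genes had 1 of 11 higher and a median of -0.57 (-0.99 to 0.18), which was 0.18 without Tbr1+/K228E replicate 2. Pituitary genes had 0 of 4 higher and -0.74 (-1.03 to -0.06), which was -0.06 without WT replicate 1, and genes of muscle, cartilage and skin 2 of 8 and -0.09 (-0.29 to -0.00), -0.00 without WT replicate 4.

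**Figure D5:**
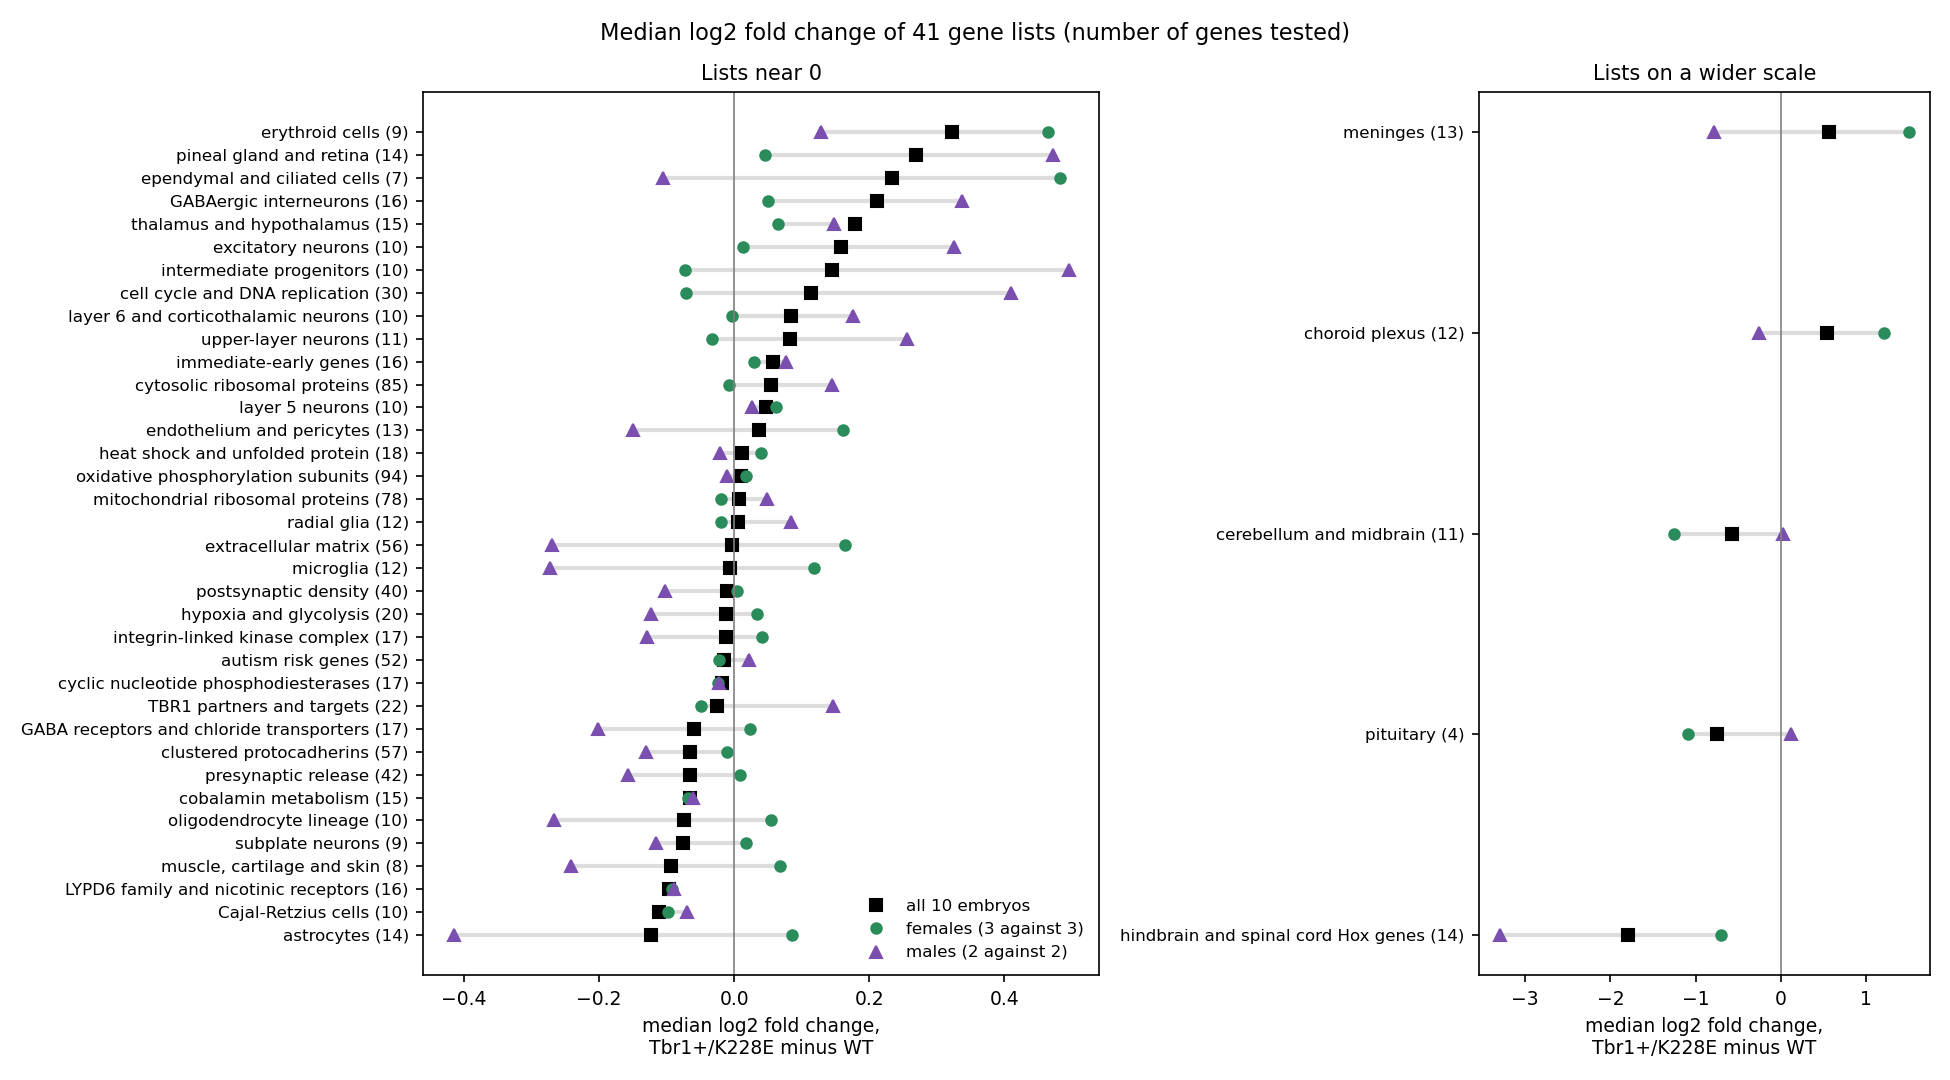
Median log2 fold change of Tbr1+/K228E against WT brains for each of 41 gene lists (horizontal axis, log2), over all embryos, in females alone and in males alone. The medians of the meninges and choroid plexus lists have opposite signs in females (1.51 and 1.22) and males (-0.78 and -0.25).

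Each genotype had 3 females and 2 males. No gene's genotype difference differed between the sexes at an adjusted p below 0.05 (limma interaction, 0% of genes called, smallest adjusted p 0.734). At an unadjusted p below 0.05 the interaction gave 1106 of 16507 genes, more than the 825.4 that as many independent genes would give. The genotype comparison gave 295, fewer than that number. Genes are not independent of each other, and whether the interaction count exceeds chance was not tested. Medians of several lists had opposite signs in the sexes, a difference that was not tested for any list. Cell cycle genes had -0.07 in females and 0.41 in males, intermediate progenitor genes -0.07 and 0.50, upper-layer genes -0.03 and 0.26, and astrocyte genes 0.09 and -0.41. In males each value compares 2 embryos with 2, one of which is WT replicate 4. Wnt7b, a Wnt ligand, had log2 fold changes of -0.22 and 0.31 (limma interaction, unadjusted p = 0.01), and Bcl6, a transcriptional repressor, -0.10 and 0.67 (unadjusted p = 0.0452).

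Set against the homozygous embryos, Tbr1+/K228E brains differed in 13 genes at an adjusted p below 0.05 (limma, 0.0788% of genes tested). Of the 13, 1 had an unadjusted limma p below 0.05 between Tbr1+/K228E and WT brains, as did 1.79% of all genes tested. Both comparisons use the same 5 Tbr1+/K228E embryos, so their values are given side by side only. Reln was lower by little in the first step and more in the second, at -0.10 from WT to Tbr1+/K228E and -0.47 from Tbr1+/K228E to Tbr1K228E/K228E brains (limma adjusted p = 0.00707). Mc4r, the gene of melanocortin receptor type 4, had 284, 231, 310.2, 146 and 137 in WT and 195, 215, 159, 175 and 158 in Tbr1+/K228E embryos, with the 3 Tbr1+/K228E females below the 3 WT females and the 2 males above the 2 WT males. Its log2 fold changes were -0.23 and -1.78 (limma adjusted p = 0.00897), and those of Tank were 0.05 and 0.26 (limma adjusted p = 0.0227). Nrgn, the neurogranin gene, had 267, 348, 398, 504 and 537 in WT and 373, 536, 458, 668 and 426 in Tbr1+/K228E embryos, which overlapped, and log2 fold changes of 0.27 and 0.87 (limma adjusted p = 0.31). Nfe2l3, a transcription factor gene, had -0.02 (SE 0.12) and -0.57 (limma adjusted p = 0.168). Tbr1 was 0.85 and 0.85, where the second had a limma adjusted p of 0.614. For Lmbrd1, Abcd4, Ilk, Lypd6 and Pde3b the second step was 0.05, 0.02, -0.08, -0.20 and 0.01, and none of these 5 passed the adjusted threshold in it.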

How the data were processed

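RNA was read as TruSeq RNA v2 libraries, which do not keep strand, on an Illumina HiSeq sequencer, and the submitters' processing notes name Salmon 0.11.2, R 3.5.3, DESeq2 1.22.2 and GRCm38. The deposited unit was a signal, gene counts that the authors had divided by size factors. Whole reads could not be recovered, so no count model was fitted, and 0 columns of unmapped samples were present. Genes with a mean of at least 5 over 15 embryos were tested with limma 3.58.1 (R 4.3.3) on log2(value + 1), with trend, all 15 embryos in one fit and Benjamini-Hochberg adjustment over 16507 genes at 0.05. Fold changes are on that scale, which understates low genes. Single values were tested by two-sided exact permutation of 5 against 5, whose smallest p is 0.00794. The fit was also run on simulated data, whose outcome is not given here.

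Named genes were those central to the study, the 12 smallest p in each direction among genes without overlap, the 5 largest fold changes in each direction among genes with an unadjusted p under 0.05, leading and first members of 41 lists, and genes within 1.5 Mb of Tbr1. Members and lists were chosen with earlier results of these data known. Alternatives were other pseudocounts, filters, scalings, covariates, weights, subsets and each embryo left out. Gene positions are from GENCODE M21, matched for 19469 of 19475 genes. Embryos are separate samples by the labels, whose litters are not given in the sources used here.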

Additional observations from a re-analysis of the deposited data

Results flagged for a closer look

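In 166 groups of 5 embryos, 15 held an embryo far from the other 4 of its genotype, where chance flags about 1 in 20. Among single genes these were WT replicate 1 for Bahd1 (high, 1351), Rad21l (low, 1.86) and Gm6311 (high, 9.68), WT replicate 3 for Tmem11 (high, 714) and Tph1 (high, 14.2), Tbr1+/K228E replicate 3 for Fam210a (high, 1397) and Gm14760 (high, 12.8), and Tbr1+/K228E replicate 4 for Gm13233 (high, 7.33), all in normalized read counts.

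Among list levels, as mean log2(value + 1), the embryos far from the rest were WT replicate 3 for the meninges (low, 4.91), WT replicate 4 for clustered protocadherins (high, 8.96), and Tbr1+/K228E replicate 1 for Hox genes (high, 7.55) and cyclic nucleotide phosphodiesterases (low, 9.66). Tbr1+/K228E replicate 2 was low in 3 lists, the cerebellum and midbrain (4.02), the thalamus and hypothalamus (7.35) and GABA receptors and chloride transporters (10.1).

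For Mc4r every Tbr1+/K228E female lay below every WT female and every Tbr1+/K228E male above every WT male. The log2 fold change in males minus that in females was 0.77, with an unadjusted p of 0.0721 for the interaction in limma, and the difference was not otherwise tested.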

How the results depend on the processing

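Under every alternative run, 0 genes differed between Tbr1+/K228E and WT brains at an adjusted p below 0.05, with smallest adjusted p from 0.0782 (without WT replicate 3) to 1.00 by limma. The count at an unadjusted p below 0.05, 295 in the report, was 193 with a mean of at least 50, 504 with array weights, 588 with erythroid, choroid plexus and cell cycle levels as covariates, 1456 in males alone, 777 with an empirical null, 451 without Tbr1+/K228E replicate 1 and 550 without WT replicate 3. With WT replicate 3 and Tbr1+/K228E replicates 1 and 2 left out, an alternative chosen after seeing the data, as was Tbr1 relative to other neuron genes, it was 658. Of 42 genes followed, 38 had the same sign throughout. Tbr1 stayed between 0.62 and 1.19, 0.67 to 0.98 when each embryo was left out. Wnt7b had 0.31 in males alone, 0.15 without the 3 embryos and -0.093 to 0.072 with each embryo left out. Nfe2l3 had 0.26, 0.12 and -0.11 to 0.038 in the same settings, and 0.026 with the 3 covariates. Bcl6 had -0.10 in females alone and Mc4r 0.24 in males alone. The cause was not tested.

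The replicate numbers name different animals, and same-numbered embryos of the 2 genotypes did not deviate together (r from -0.21 to 0.22, mean 0.07, and 1 of 5 correlated best with its own number). With the replicate block, 0 genes passed, 390 had an unadjusted p below 0.05 and Tbr1 was 0.85. With a mean of at least 50, genes under that level and the pituitary list gave no value. The count between Tbr1K228E/K228E and Tbr1+/K228E brains was 11 to 14 over its alternatives. With 5 embryos a genotype the precision is set by their spread, and values below about 10 rest on few reads.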
